A study of Mus musculus with 8 samples.

Results

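The 31 genes described here are markers of neural crest derivatives and of neurons, read in mesonephric tubules of mouse embryos on 8 one-colour Agilent arrays. They were chosen by name from known roles and not by a threshold on these arrays, but with earlier results of these data known. Shares of the 31 genes set against all features therefore describe the list and are not independent evidence. The 31 fall into 6 genes of neural crest and glia, 8 genes of the sympathoadrenal lineage and 17 genes of neurons in general. Each of the 31 had a probe whose accession maps to it in RefSeq, and each passed the filter of being well above background on at least 3 of 8 arrays, out of 33619 features tested, 18164 of which carry a symbol. There were 3 arrays of tubules from embryos labelled as lacking p21 (p21KO -/-), the cyclin-dependent kinase inhibitor encoded by Cdkn1a, and 5 arrays of tubules from wild-type embryos. All embryos were of strain C57/BL6, and all tubules were cut by microdissection from frozen sections stained with toluidine blue. The design describes the wild-type tubules as senescent and the p21-null tubules as non-senescent. The labels give no embryonic stage and do not say how many embryos went into a sample, so p-values measure the spread between these samples, which may be technical.

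Neural crest cells leave the dorsal neural tube and form the glia and neurons of peripheral nerves and ganglia, and the chromaffin cells of the adrenal medulla, which arise beside the mesonephros. Sox10 and Foxd3 are transcription factors of migrating crest and of Schwann cell precursors, which depend on the neuregulin receptor Erbb3. Phox2a, Hand2 and Isl1 act in the sympathoadrenal lineage, whose cells make catecholamines with the enzymes encoded by Th, Ddc and Dbh and store them in granules with chromogranins. Sox2 and Fabp7 belong to glia and also to the progenitors of the central nervous system, and pan-neuronal genes such as Tubb3, Elavl3 and Dcx are shared by central and peripheral neurons. Some of the genes are also used outside nerves: Ddc in proximal tubule and liver, Hand2 and Isl1 in mesenchyme, and Ncam1 in nephrogenic mesenchyme. L1cam is also found in nephric duct, and Uchl1 in germ cells and nephric duct.

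A signal here is the log2 processed intensity of the brightest probe of a gene minus the 75th percentile of the array, and a difference is the mean of the p21-null arrays minus the mean of the wild-type arrays. The share of probes well above background lay between 82.2% and 89.2%. The number of arrays limits the precision. Cdkn1a itself averaged 1.49 ± 0.58 (SD, n = 3) on labelled p21-null arrays and 1.68 ± 0.90 (SD, n = 5) on wild-type arrays (limma adjusted p = 0.950), so the signal of the targeted gene does not bear out the label. The sources used here do not place its probes relative to the deleted stretch, and the group is called labelled p21-null throughout. The arrays lay on 3 slides, slide 1 with labelled p21-null replicate 1 and wild-type replicates 1 to 3, slide 2 with labelled p21-null replicate 2 and wild-type replicate 4, and slide 3 with labelled p21-null replicate 3 and wild-type replicate 5. The mean local background was 37.98 to 44.11 intensity units on slide 1 and 91.3 to 135 on slides 2 and 3, and values within slides are given for differences of at least 4-fold. Wild-type replicates 3 and 4 stood apart in neural genes that are not among the 31. The linear signal summed over 22 measured neural tube markers, in multiples of the array's 75th percentile, was 6.47 to 9.15 on the labelled p21-null arrays, against 62.7 and 46.4 on wild-type replicates 3 and 4 and 7.13 to 10.986 on the other 3 wild-type arrays. Wild-type replicates 3 and 4 were picked as the 2 wild-type arrays with the highest mean log2 signal over these markers. The differences of the 31 genes are therefore given with and without these 2 arrays, a choice made after the values were seen.

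Of the 31 genes 28 had a lower mean on labelled p21-null arrays than in wild type, where 52.3% of all features tested had a negative difference. The median difference was -1.41 on the log2 scale over the 31 genes and -0.03 over all features. At least a 4-fold lower mean was found for 12 genes, against 1.5% of all features, and 0 genes had a mean at least 2-fold higher, against 7.77%. None passed the test after adjustment: limma with Benjamini-Hochberg adjustment over all features called 0 of 33619 features (0.0%) at the 0.05 threshold. Among the 31 genes S100b and Ncam1 came closest, with a limma adjusted p of 0.283 each. At an unadjusted p under 0.05, 5 of the 31 were lower (S100b, Isl1, Ncam1, Nrcam and Uchl1), against 3.91% of all features, and 0 were higher, against 6.2%; over all features and both directions limma gave 3400 (10.1%). Sox2, Foxd3, Isl1, Chgb and Nefl were not above background on all 8 arrays, so their differences rest partly on signals not above background. Sox2, Isl1 and Chgb passed the filter mainly through wild-type arrays (5, 4 and 3 of 5, against 1 of 3 labelled p21-null arrays for each). Of the other 26 genes, above background on all 8 arrays, 23 averaged lower on labelled p21-null arrays and 8 at least 4-fold lower, against 53.0% and 0.721% of the 28170 features that met this filter. Fitted on those features alone, 7 of the 26 were lower at an unadjusted p under 0.05 (S100b, Sox10, Ncam1, Nrcam, Elavl3, Nefm and Uchl1), against 4.5%. Without wild-type replicates 3 and 4 the median over the 31 genes was -0.68, 28 again had a lower mean, against 56.2% of features, and 3 were lower at an unadjusted p under 0.05 (S100b, Sox10 and Ncam1), against 4.29%. In bulk tissue, fewer cells of a type and less RNA per cell cannot be told apart.

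**Figure D1:**
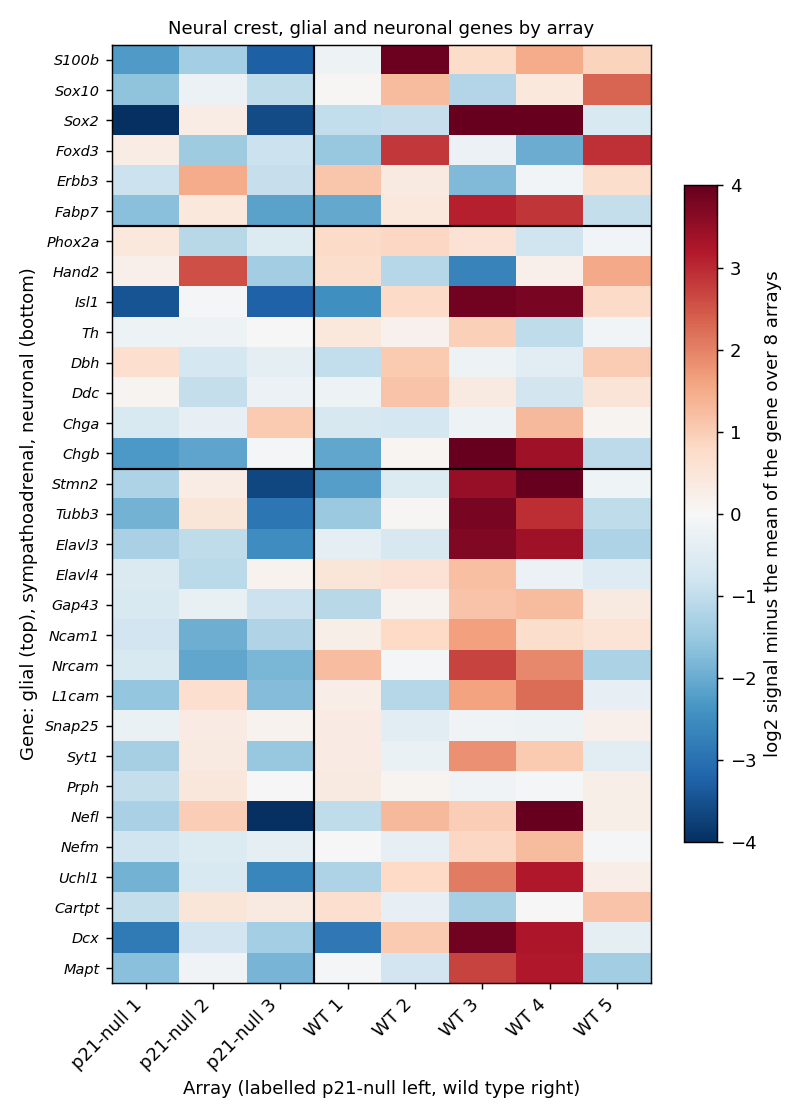
Colour map of the log2 signal of each of the 31 genes (rows) on each of the 8 arrays (columns), as the difference from that gene's mean over the arrays; differences beyond 4 take the end colour, and lines divide the groups of arrays and the glial, sympathoadrenal and neuronal genes. Wild-type replicates 3 and 4 are the 2 highest arrays for 15 of the 31 genes, most of them neuronal.

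All 6 glial and crest genes averaged lower on the labelled p21-null arrays. Their median difference was -1.67, and the median was -1.84 without wild-type replicates 3 and 4. They did not share one pattern across arrays. S100b, a calcium-binding protein of Schwann cells and astrocytes, was at -3.57, -2.66 and -4.57 in labelled p21-null replicates 1 to 3, against -1.51, 2.61, -0.57, 0.18 and -0.43 in wild-type replicates 1 to 5. The groups did not overlap, and wild-type replicate 2 was the highest array. Its difference was -3.66 (SE 0.86, limma adjusted p = 0.283), it was -3.75, -2.85 and -4.14 within slides 1, 2 and 3, and it was -3.82 without wild-type replicates 3 and 4.

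Sox10 was at -3.84, -2.46 and -3.24 in labelled p21-null replicates 1 to 3, against -2.19, -0.97, -3.39, -1.81 and 0.11 in wild-type replicates 1 to 5. Wild-type replicate 3 lay among the labelled p21-null values and replicates 5 and 2 were highest. The difference was -1.53 (SE 0.72, limma adjusted p = 0.529), and -2.16 with a standard error of 0.65 without wild-type replicates 3 and 4. Foxd3 was at -6.07, -7.79 and -7.23 in labelled p21-null replicates 1 to 3, against -7.90, -3.55, -6.61, -8.36 and -3.44 in wild-type replicates 1 to 5. It was well above background only on wild-type replicates 2 and 5 and on labelled p21-null replicate 1, so it passed the filter with the fewest arrays allowed, and its difference of -1.06 (SE 1.21) was -2.07 without wild-type replicates 3 and 4. Erbb3 was at -2.05, 0.29 and -2.13 in labelled p21-null replicates 1 to 3, against -0.08, -0.82, -2.97, -1.32 and -0.48 in wild-type replicates 1 to 5. Labelled p21-null replicate 2 was the highest of the 8 arrays for Erbb3 and wild-type replicate 3 the lowest, and the difference of -0.16 was smaller than its standard error of 0.76. Without wild-type replicates 3 and 4 it was -0.84 (SE 0.68).

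Sox2 and Fabp7 instead followed the neuronal genes. Sox2, a transcription factor of neural progenitors, was at -8.35, -3.998 and -7.89 in labelled p21-null replicates 1 to 3, against -5.28, -5.23, 1.10, 0.15 and -4.90 in wild-type replicates 1 to 5. Wild-type replicates 3 and 4 stood far above the other 3 wild-type arrays, all of which lay below labelled p21-null replicate 2, the only labelled p21-null array on which Sox2 was well above background. The difference of -3.92 had a standard error of 1.77 (limma adjusted p = 0.506) and was -1.61 without those 2 arrays. Within slides 1, 2 and 3 it was -5.21, -4.14 and -3.00. Fabp7, a fatty acid-binding protein of radial glia and Schwann cell precursors, was at -1.87, 0.23 and -2.35 in labelled p21-null replicates 1 to 3, against -2.26, 0.22, 2.91, 2.68 and -1.14 in wild-type replicates 1 to 5. Here too wild-type replicates 3 and 4 were highest and the other wild-type arrays lay within the labelled p21-null range; the difference of -1.81 was -0.27 without them. The mean of Sox2 and Fabp7 was 2.01 and 1.41 on wild-type replicates 3 and 4, where the mean of S100b, Sox10, Foxd3 and Erbb3 was -3.38 and -2.83; on wild-type replicates 2 and 5 the same means were -2.51 and -3.02 for the pair and -0.68 and -1.06 for the other 4 genes. This division was seen in the data and has no test.

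**Figure D2:**
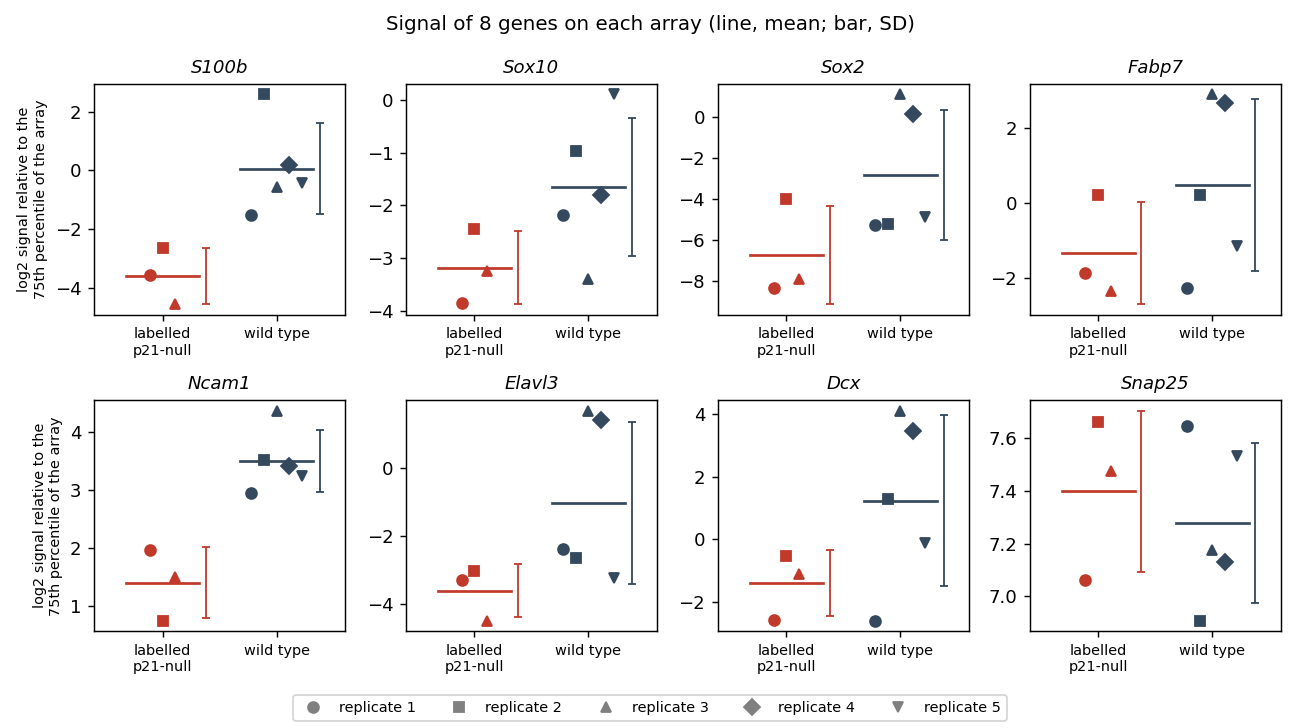
Log2 signal minus the array's 75th percentile (vertical axes, with a different range in each panel) for 8 genes in labelled p21-null arrays (left, n = 3) and wild-type arrays (right, n = 5); symbols mark replicate numbers, lines the mean and bars the SD. The groups do not overlap for S100b and Ncam1, wild-type replicates 3 and 4 stand above all other arrays for Sox2, Fabp7, Elavl3 and Dcx, and Snap25 lies between 6.91 and 7.66 on every array.

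The 8 sympathoadrenal genes had a median difference of -0.41, and 6 of the 8 had a lower mean on labelled p21-null arrays. Isl1 and Chgb, both near background on most labelled p21-null arrays, had the large differences, and the other 6 genes differed by less than 2-fold. Isl1, a LIM homeodomain factor of sympathetic, sensory and motor neurons, was at -8.27, -4.85 and -8.04 in labelled p21-null replicates 1 to 3, against -7.28, -4.05, -0.97, -1.02 and -4.07 in wild-type replicates 1 to 5. Wild-type replicates 3 and 4 were highest, and Isl1 was above background on 1 of 3 labelled p21-null and 4 of 5 wild-type arrays. Its difference of -3.58 had a standard error of 1.45 (limma adjusted p = 0.455) and was -1.92 without those 2 arrays; within slides 1, 2 and 3 it was -4.17, -3.83 and -3.97. Chgb, which encodes the granule protein chromogranin B, was at -7.68, -7.52 and -5.48 in labelled p21-null replicates 1 to 3, against -7.46, -5.33, -1.29, -1.99 and -6.43 in wild-type replicates 1 to 5. It was above background on 1 of 3 labelled p21-null and 3 of 5 wild-type arrays, and its difference of -2.39 came to -0.49 without wild-type replicates 3 and 4. Within slides 1 and 2 it was -2.99 and -5.53, and within slide 3 it had the opposite sign, at 0.96.

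Phox2a, a homeodomain factor of noradrenergic neurons, was at -1.11, -2.64 and -2.07 in labelled p21-null replicates 1 to 3, against -0.76, -0.68, -0.95, -2.31 and -1.63 in wild-type replicates 1 to 5. The groups overlapped, the difference was -0.67 (SE 0.49, limma adjusted p = 0.728), and it was -0.91 without wild-type replicates 3 and 4, which were not raised. Ddc, the aromatic amino acid decarboxylase, was at 1.29, 0.23 and 0.95 in labelled p21-null replicates 1 to 3, against 1.003, 2.34, 1.56, 0.45 and 1.72 in wild-type replicates 1 to 5. The groups overlapped, the difference was -0.59 (SE 0.46), or -0.86 without wild-type replicates 3 and 4, and a dimmer Ddc probe gave -0.997. Th, tyrosine hydroxylase, the rate-limiting enzyme of catecholamine synthesis, lay between 0.19 and 0.41 on labelled p21-null arrays and between -0.62 and 1.34 in wild type, and Dbh, dopamine beta-hydroxylase, between -4.70 and -3.33 on labelled p21-null arrays and between -4.99 and -2.93 in wild type. The difference was -0.21 (SE 0.43) for Th and -0.23 (SE 0.56) for Dbh, and without wild-type replicates 3 and 4 it was -0.29 and -0.51. For both of these genes every labelled p21-null value lay inside the wild-type range.

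Hand2 and Chga had higher means on labelled p21-null arrays. Hand2, a basic helix-loop-helix factor of the sympathetic lineage and of mesenchyme, was at -2.52, -0.15 and -4.14 in labelled p21-null replicates 1 to 3, against -2.04, -3.86, -5.41, -2.53 and -1.22 in wild-type replicates 1 to 5. The difference of 0.74 had a standard error of 1.08 and turned to -0.32 without labelled p21-null replicate 2. Without wild-type replicates 3 and 4 it came to 0.11. Chga, which encodes chromogranin A, was at -4.51, -4.24 and -2.86 in labelled p21-null replicates 1 to 3, against -4.55, -4.62, -4.11, -2.60 and -3.79 in wild-type replicates 1 to 5. Its difference of 0.06 was smaller than its standard error of 0.55, and it was 0.45 without wild-type replicates 3 and 4. The chromogranin genes did not share a pattern: Chgb was highest on wild-type replicates 3 and 4 and Chga on labelled p21-null replicate 3 and wild-type replicate 4.

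A cAMP response element, the palindrome TGACGTCA bound by CREB-family factors, is a textbook feature of promoters of catecholamine, granule and neuropeptide genes, and the stretches that hold it are shown for 3 genes of these kinds whose signals differed in pattern. RefSeq promoter windows of GRCm38.p6, 250 bases before to 50 after a gene's start, were found for 22 of the 31 genes, and 4 of them held the element (Th, Chgb, Cartpt and Foxd3), against 2.03% of 27025 genes with a window. Each sequence below runs 5′ to 3′ over the 130 bases before the start that the table uses, on the gene's own strand, with the element in capitals. For Cartpt that start lies inside the gene's annotated span, so other transcripts begin further upstream.
Th, chr7:142899996-142900125, minus strand: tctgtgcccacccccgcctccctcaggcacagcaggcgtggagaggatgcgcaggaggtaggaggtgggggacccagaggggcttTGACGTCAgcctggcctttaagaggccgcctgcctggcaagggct
Chgb, chr2:132781512-132781641, plus strand: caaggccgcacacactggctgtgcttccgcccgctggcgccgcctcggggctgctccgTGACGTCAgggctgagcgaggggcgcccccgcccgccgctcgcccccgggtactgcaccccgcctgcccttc
Cartpt, chr13:99900684-99900813, minus strand: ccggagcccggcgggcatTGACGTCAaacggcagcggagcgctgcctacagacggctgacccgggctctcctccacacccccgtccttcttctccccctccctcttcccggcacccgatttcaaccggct

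The element starts 45 bases before the start of Th, 72 before that of Chgb, 112 before that of Cartpt and 233 before that of Foxd3. The differences of these genes were -0.21 for Th, -2.39 for Chgb, -0.05 for Cartpt and -1.06 for Foxd3, of which Chgb and Foxd3 were above background on few arrays. The element was 1 of 16 motifs searched on both strands and was picked for description after the counts were seen. A long core of the RE1 element bound by the neuronal repressor REST was in 0 of the 22 genes and 0.0407% of all genes with a window, its left part CAGCACC in 2 and 8.14%, the SOX sites ACAAAG and ACAATG in 4 and 3 against 21.02% and 14.3%, and TATAAA in 5 against 15.7%. CCAAT was found for 14 of the 22 genes against 41.1% of all genes, GGGCGG for 13 against 38.2%, and its longer form GGGCGGGG for 5 against 19.6%. The remaining motifs were TAATTA (3 of the 22, 6.12% of all genes), ATTA, which TAATTA contains (15, 61.4%), CATCTG (5, 19.2%), CAGCTG (6, 18.3%), TGCGCA (3, 8.79%), TATAAAA, which contains TATAAA (1, 6.39%), and TGACGNNA, which contains the palindrome (6, 7.56%). These matches describe letters in the windows and are not binding sites.

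The 17 neuronal genes had a median difference of -1.96, and 16 averaged lower on the labelled p21-null arrays. For 11 of the 17 the 2 highest arrays were wild-type replicates 3 and 4, a rank order that 7.34% of all features showed, and without these arrays the median was -0.61. Ncam1, the neural cell adhesion molecule, was at 1.96, 0.75 and 1.497 in labelled p21-null replicates 1 to 3, against 2.95, 3.52, 4.36, 3.41 and 3.24 in wild-type replicates 1 to 5. Every labelled p21-null array lay below every wild-type array, and wild-type replicate 3 was highest. The difference was -2.10 (SE 0.41, limma adjusted p = 0.283), or 4.28-fold; it was -1.65, -2.67 and -1.75 within slides 1, 2 and 3 and -1.84 without wild-type replicates 3 and 4. The 2 dimmer Ncam1 probes gave smaller differences of -1.04 and -1.27, and for both of them the groups overlapped.

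Nrcam, an adhesion molecule of axons and nodes of Ranvier, was at -2.49, -3.94 and -3.69 in labelled p21-null replicates 1 to 3, against -0.64, -1.94, 0.82, 0.05 and -3.12 in wild-type replicates 1 to 5. Only wild-type replicate 5 reached into the labelled p21-null range, and the difference of -2.41 had a standard error of 0.85 (limma adjusted p = 0.388). Within slides 1, 2 and 3 it was -1.90, -3.99 and -0.58. L1cam, an adhesion molecule of growing axons that is also found in nephric duct, lay between -4.72 and -2.31 on labelled p21-null arrays and between -4.11 and -0.75 in wild type, and its difference was -1.41 (SE 0.85). Without wild-type replicates 3 and 4 the difference was -1.48 for Nrcam and -0.48 for L1cam.

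The RNA-binding proteins of the Hu family mark neurons soon after they leave the cell cycle. Elavl3, encoding HuC, was at -3.31, -3.04 and -4.50 in labelled p21-null replicates 1 to 3, against -2.38, -2.66, 1.68, 1.40 and -3.25 in wild-type replicates 1 to 5. Wild-type replicates 3 and 4 were far above the rest, the other 3 wild-type arrays lay within 1 log2 unit of a labelled p21-null array, and the difference of -2.58 (SE 1.21, limma adjusted p = 0.528) came to -0.85 without them. Within slides 1, 2 and 3 it was -2.20, -4.43 and -1.25. Elavl4, encoding HuD, had 2 probes that disagreed. The brighter one lay between 0.82 and 2.03 on labelled p21-null arrays and between 1.36 and 3.096 in wild type, and its difference was -0.81 (SE 0.46), or -0.68 without wild-type replicates 3 and 4. The dimmer one was not well above background on any labelled p21-null array. It was at -5.45, -5.21, -0.28, 0.03 and -3.53 in wild-type replicates 1 to 5, above background on 4 of them. Its mean was at least 7.85-fold lower on labelled p21-null arrays. That bound sets the wild-type mean against the higher of the probe's own signal and the lowest signal well above background on each labelled p21-null array. It rests mainly on wild-type replicates 3 and 4 and was not computed without them. Labelled p21-null replicate 2, at -5.42, lay above wild-type replicate 1 for this probe. The dimmer probe thus followed Elavl3 across the wild-type arrays and the brighter one did not.

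Several of the genes encode parts of the neuronal cytoskeleton. Dcx, doublecortin, a microtubule-binding protein of migrating young neurons, was at -2.58, -0.52 and -1.12 in labelled p21-null replicates 1 to 3, against -2.61, 1.28, 4.11, 3.47 and -0.11 in wild-type replicates 1 to 5. Wild-type replicate 1 was the lowest of all 8 arrays and replicates 3 and 4 the highest; the difference of -2.63 (SE 1.40, limma adjusted p = 0.594) was -0.93 without them. Within slides 1, 2 and 3 it was -3.51, -3.99 and -1.01. The 2 other Dcx probes gave differences of -2.54 and -2.65.

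Nefl and Nefm, the light and medium neurofilament genes, which neighbour each other on chromosome 14, differed in size. Nefl was at -4.08, -1.80 and -7.98 in labelled p21-null replicates 1 to 3, against -3.78, -1.48, -1.81, 1.25 and -2.54 in wild-type replicates 1 to 5, with labelled p21-null replicate 3 below background and wild-type replicate 4 highest. Nefm was at -3.02, -2.77 and -2.61 in labelled p21-null replicates 1 to 3, against -2.22, -2.55, -1.38, -0.93 and -2.26 in wild-type replicates 1 to 5. The groups did not overlap for Nefm, although labelled p21-null replicate 3 and wild-type replicate 2 lay close together. The differences were -2.95 (SE 1.43) for Nefl and -0.93 (SE 0.41) for Nefm, with limma adjusted p-values of 0.541 and 0.495, and -2.02 and -0.46 without wild-type replicates 3 and 4. Within slides 1, 2 and 3 the Nefl difference was -1.73, -3.06 and -5.44.

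Stmn2, a microtubule regulator of growth cones, Tubb3, the neuronal beta-tubulin, and Mapt, the gene of tau, all had wild-type replicates 3 and 4 as their highest arrays, between 2.28 and 4.45. Their differences were -2.44, -2.28 and -1.96, and -0.55, -0.61 and -0.48 without those 2 arrays. Within slides 1, 2 and 3 the difference was -1.48, -3.70 and -3.46 for Stmn2 and -2.66, -2.46 and -1.87 for Tubb3. The 2 other Mapt probes gave differences of -1.40 and -2.15. Gap43, a growth cone protein, lay between 1.65 and 2.22 on labelled p21-null arrays and between 1.42 and 3.78 in wild type, a difference of -0.96 (SE 0.53) that was -0.40 without wild-type replicates 3 and 4. Prph, encoding peripherin, the intermediate filament of peripheral neurons, lay between -2.05 and -0.64 on labelled p21-null arrays and between -1.23 and -0.72 in wild type. Its difference was -0.26 (SE 0.36), or -0.40 without wild-type replicates 3 and 4, and wild-type replicates 3 and 4, at -1.23 and -1.15, were its lowest wild-type arrays. Prph did not share the high values that Dcx, Stmn2 and Tubb3 had on those arrays.

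Of the genes of transmitter release, Syt1, the calcium sensor of synaptic vesicles, was at -2.64, -0.96 and -2.82 in labelled p21-null replicates 1 to 3, against -0.99, -1.58, 0.51, -0.26 and -1.78 in wild-type replicates 1 to 5. Its difference of -1.32 had a standard error of 0.63 (limma adjusted p = 0.534) and was -0.69 without wild-type replicates 3 and 4. Snap25, a membrane fusion protein of the synapse, was at 7.06, 7.66 and 7.47 in labelled p21-null replicates 1 to 3, against 7.65, 6.91, 7.18, 7.13 and 7.53 in wild-type replicates 1 to 5. Its difference of 0.12 (SE 0.30) turned to -0.01 without labelled p21-null replicate 2. Without wild-type replicates 3 and 4 it came to 0.04. Unlike Syt1, its probe had no raised values on wild-type replicates 3 and 4. The mean of this probe over the 8 arrays lay at percentile 99.9 of all features, and whether it reads Snap25 alone was not tested.

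Uchl1, a ubiquitin hydrolase abundant in neurons and also found in germ cells and nephric duct, was at -2.28, -0.98 and -3.00 in labelled p21-null replicates 1 to 3, against -1.63, 0.42, 1.69, 2.82 and -0.10 in wild-type replicates 1 to 5. All wild-type arrays but replicate 1 lay above every labelled p21-null array. The difference was -2.73 (SE 0.93, limma adjusted p = 0.381), -2.44, -3.80 and -2.90 within slides 1, 2 and 3, and -1.65 without wild-type replicates 3 and 4. Cartpt, the gene of a neuropeptide of sympathetic neurons and brain, averaged -4.19 ± 0.80 on labelled p21-null arrays (SD, n = 3) and -4.14 ± 0.95 on wild-type arrays (SD, n = 5). Its difference of -0.05 was smaller than its standard error of 0.59, and it was -0.51 without wild-type replicates 3 and 4.

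**Figure D3:**
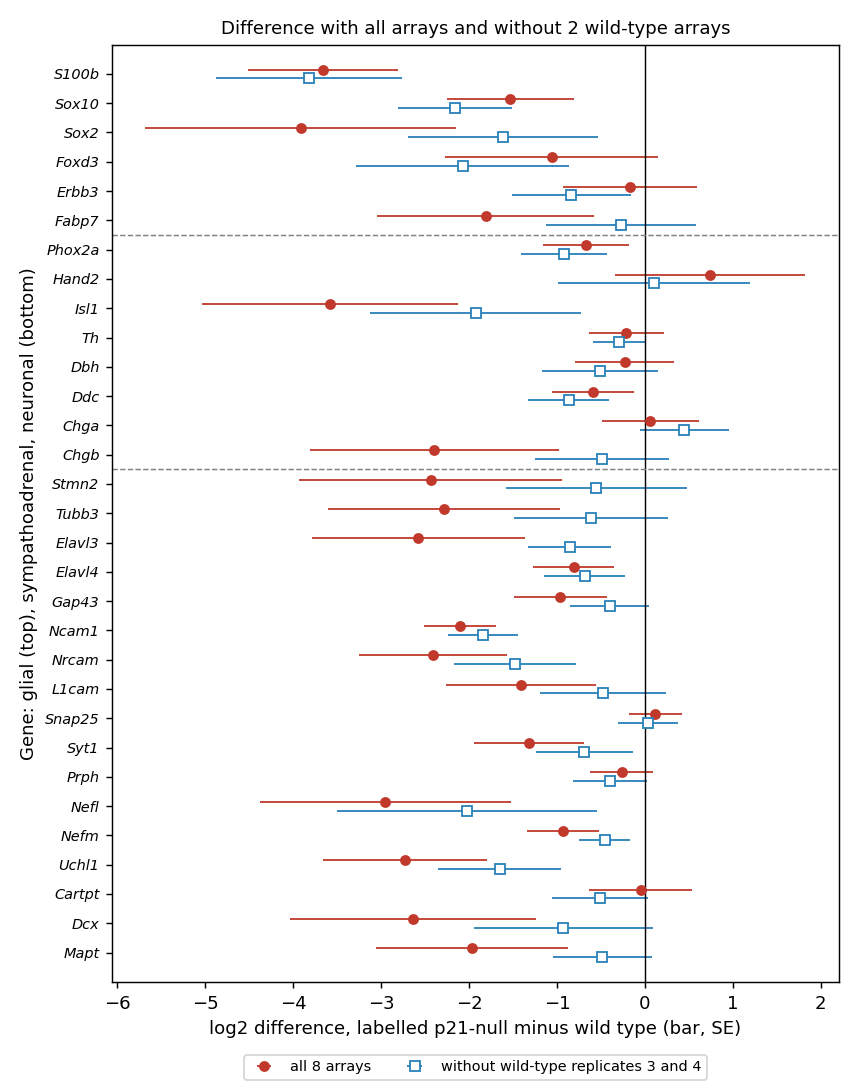
Log2 difference of labelled p21-null minus wild-type arrays (horizontal axis) for each of the 31 genes, with the standard error from limma as bars; filled circles use all 8 arrays, open squares leave out wild-type replicates 3 and 4. The median over the 17 neuronal genes is -1.96 with all arrays and -0.61 without those 2, while that of the 6 glial genes is -1.67 and -1.84.

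Across the 31 genes, 20 had a lower value in the labelled p21-null arrays on each of the 3 slides. Slides 2 and 3 each hold 1 array of each group, and the share of all features lower on every slide was not counted, so this count has no background to be read against. The groups did not overlap, with labelled p21-null lower, for S100b, Ncam1 and Nefm, 3 of 31 genes against 2.44% of all features, and 0 genes lay wholly higher, against 4.44%. With slide as a fixed block in limma, 11 of the 31 were lower at an unadjusted p under 0.05, and 0 at an adjusted p under 0.05, where the unadjusted share of all features was 4.4%. The count of 5 without a block depended on single arrays. Leaving out labelled p21-null replicate 3 gave 2 genes, against 2.23% of all features, and leaving out labelled p21-null replicate 2 gave 8, against 4.92%. Leaving out wild-type replicate 1 gave 11 genes, replicate 2 gave 8 and replicate 5 gave 9, against 4.5%, 3.72% and 4.12% of all features. Leaving out wild-type replicates 3 and 4 together gave 3, against 4.29%. Counts without labelled p21-null replicate 1, wild-type replicate 3 or wild-type replicate 4 alone are not listed here.

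Other genes of the same lineages were taken from lists drawn up from their known roles, also with earlier results of these data known. Of 40 measured other neuronal genes 38 had a lower mean on labelled p21-null arrays (median -1.73), against 52.3% of all features. At an unadjusted p under 0.05, 10 were lower and 0 higher, against 3.91% and 6.2%. For 32 of the 40, wild-type replicates 3 and 4 were the 2 highest arrays, against 7.34% of all features. Without those arrays the median of the 40 was -0.55, and 6 were lower and 1 higher at an unadjusted p under 0.05, where 4.29% of all features were lower. Dpysl3 and Map1b, cytoskeletal proteins of growing axons, had differences of -2.46 and -2.62, Stx1a, a syntaxin of the synapse, -1.36 and Tubb2b, a tubulin of young neurons, -1.48. The limma adjusted p-values of these 4 genes lay between 0.307 and 0.399.

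Of 19 measured other glial and crest genes 14 had a lower mean on labelled p21-null arrays (median -0.93, and -1.16 without wild-type replicates 3 and 4), and 1 had those arrays as its 2 highest. At an unadjusted p under 0.05, 5 were lower and 2 higher, against 3.91% and 6.2% of all features. Without wild-type replicates 3 and 4 these counts were 4 and 3. The groups did not overlap for 1 lower and 2 higher genes, against 2.44% and 4.44% of all features. Sox8, a relative of Sox10, had a difference of -3.00 with 1 of 3 labelled p21-null and 4 of 5 wild-type arrays above background, and Zic1, a zinc finger factor of dorsal neural tube and crest, -1.72, fitted without wild-type replicate 1, where its spot was marked as an outlier. Gfap, the intermediate filament of astrocytes and some Schwann cells, was higher on labelled p21-null arrays in mean: it was at 0.06, -0.32 and 0.19 in labelled p21-null replicates 1 to 3, against -1.35, -2.55, -3.33, -1.92 and -1.83 in wild-type replicates 1 to 5. Its difference of 2.17 had a standard error of 0.45 (limma adjusted p = 0.283), and the groups did not overlap.

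Of 28 measured other sympathoadrenal genes 19 had a lower mean on labelled p21-null arrays, with a median of -0.61. At an unadjusted p under 0.05, 4 were lower and 1 higher, against 3.91% and 6.2% of all features. Without wild-type replicates 3 and 4 the median was -0.36, and 1 was lower and 1 higher at an unadjusted p under 0.05, where 4.29% of all features were lower. Sox11 and Sox4, factors of young neurons that are widely expressed in embryos, had differences of -2.10 and -1.71, and both were highest on wild-type replicates 3 and 4. Gch1, which makes the cofactor of tyrosine hydroxylase, was higher on labelled p21-null arrays, with a difference of 1.33 (limma adjusted p = 0.331).

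Markers of particular neural sources differed between arrays. Of 22 measured neural tube markers 19 had a lower mean on labelled p21-null arrays (median -1.24), against 52.3% of all features. Without wild-type replicates 3 and 4 the median was -0.35, and 11 markers had these as their 2 highest arrays, against 7.34% of all features. These 2 arrays were chosen as the wild-type arrays with the highest mean of the same 22 markers. That count and the change of the median therefore partly follow from the choice and are no separate result. Of the 22, 1 was above background on no labelled p21-null array. Sox1, a factor of the neural plate and tube, was at -1.47, -0.96 and -1.74 in labelled p21-null replicates 1 to 3, against -0.61, -0.87, 2.96, 1.29 and 0.16 in wild-type replicates 1 to 5. Dbx1, of ventral interneuron progenitors, had a difference of -1.30 and was not raised on wild-type replicate 3. Of 14 measured sensory ganglion markers 11 had a lower mean on labelled p21-null arrays, against 52.3% of all features. Their median difference was -0.85, and -0.56 without wild-type replicates 3 and 4. At least 2-fold lower were 5 and at least 2-fold higher 1, against 7.18% and 7.77% of all features. For 0 of the 14 were wild-type replicates 3 and 4 the 2 highest arrays, against 7.34%. The summed sensory ganglion signal was 2.48 to 4.02 times the 75th percentile on labelled p21-null arrays and 4.05 to 8.98 in wild type, with the highest value on wild-type replicate 2. Pou4f1, a factor of sensory neurons, had a difference of -0.85. Avil, an actin-binding protein of sensory neurons, had one of 2.01, the highest of this list. The part of neural tube tissue in the neuronal differences was not tested.

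**Figure D4:**
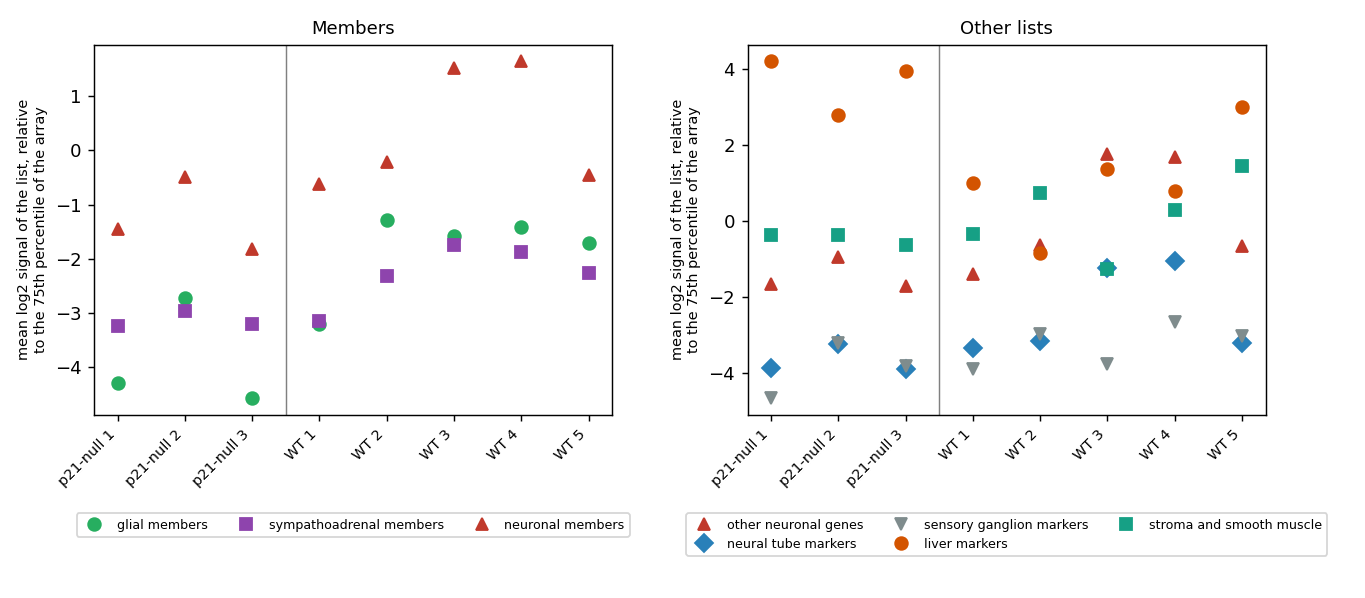
Mean log2 signal of gene lists on each array, minus the array's 75th percentile, with labelled p21-null arrays left of the vertical line and wild-type arrays right of it; the left panel shows the 31 genes by subset and the right panel other lists. The neuronal members stand at 1.52 and 1.64 on wild-type replicates 3 and 4 and at -0.22 or lower on the other 6 arrays. The neural tube markers are highest on the same 2 arrays, which were picked among the wild-type arrays by the mean of these markers.

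Markers of other cell types moved with the groups as well. All 20 liver markers had a higher mean on labelled p21-null arrays, and their summed signal was 198 to 444 times the 75th percentile in those arrays and 20.2 to 248 in wild type; Hp and Plg, secreted by hepatocytes, had differences of 3.39 and 3.19. Of 21 erythroid markers 19 were higher, with sums of 416 to 546 on labelled p21-null arrays and 237 to 474 in wild type, and Epor, the erythropoietin receptor, differed by 2.54. Of 21 macrophage markers 17 were higher, with sums of 191 to 267 on labelled p21-null arrays and 142 to 253 in wild type; Tyrobp and Lyz1 differed by 1.62 and 2.78. Over all features 52.3% had a negative difference. At an unadjusted limma p under 0.05, 19 liver, 15 erythroid and 13 macrophage markers were higher and 0 lower, against 6.2% and 3.91% of all features. The groups did not overlap, with labelled p21-null higher, for 5, 14 and 1 of them, against 4.44%. No tested marker of these 3 lists was below background on all arrays of a group.

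Stroma and smooth muscle markers, which surround nerves and tubules, had a lower mean for 19 of 24 genes, against 52.3% of all features. Their sums were 64.3 to 159 on labelled p21-null arrays and 61.6 to 193 in wild type. Their list mean was highest on wild-type replicates 5 and 2 (1.43 and 0.73), the arrays on which Sox10 and Foxd3 were highest, and lowest on wild-type replicate 3 (-1.26). Twist2, a mesenchymal factor, differed by -1.59, and Myh11, smooth muscle myosin, by -1.56, a fit that rests on 1 wild-type array because its spots on the other 4 were marked as outliers. Nephric markers had a lower mean for 19 of 27 genes, against 52.3% of all features. Their sums were 27.1 to 30.9 on labelled p21-null arrays and 20.2 to 52.9 in wild type, so tubule genes were read in both groups. At least 2-fold lower were 7 and at least 2-fold higher 2, against 7.18% and 7.77% of all features, and 3 were at least 4-fold lower, against 1.5%. Cldn2, a claudin of proximal tubule, differed by -2.23. Of the 27, 2 were not above background on any labelled p21-null array, Sim1 among them. Of 14 steroidogenic and gonadal markers 6 had a lower and 8 a higher mean, with a median difference of 0.04. Their sums were 122.7 to 151 on labelled p21-null arrays and 117 to 183 in wild type. At least 2-fold lower were 4 and at least 2-fold higher 3, against 7.18% and 7.77% of all features. Wt1 and Sox9 differed by -1.33 and -2.30, the latter the lowest of the list, whose highest difference was 2.05. Of 16 endothelial markers 7 had a lower mean, with sums of 12.7 to 24.2 on labelled p21-null arrays and 11.9 to 26.8 in wild type, and Tek and Sox18 differed by 0.60 and -2.52. The part of these cell types in the differences of the 31 genes was not tested.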

How the data were processed

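The 31 genes and the gene lists were chosen with earlier results of these data known. Per the file headers, the deposited intensity values came from Agilent Feature Extraction 10.7.3.1, which subtracted background and detrended each array; the median spot and background intensity are in the same files, with an other value, the flag for spots well above background. The series table deposited by the authors holds log2 values (array medians 9.26; limma per the submitters' processing notes), which correlated at 0.99996 or higher with log2 normexp-corrected, quantile-normalized intensities, so scale and direction are settled and genes were not centred. No source used here names how the authors corrected its background; normexp here used the median intensities with an offset of 50.

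Outlier spots were left out, spots of a probe averaged, and log2 processed intensity taken minus the 75th percentile of the array. Accessions named 26056 of 55681 probes through RefSeq (GRCm38.p6). Probes well above background on 3 or more of 8 arrays were kept (50046), the brightest per gene standing for it. limma 3.58.1 in R 4.3.3 compared 3 labelled p21-null with 5 wild-type arrays without covariates, tested on simulated data, with Benjamini-Hochberg adjustment over 33619 features. Array values are given for the glial genes, the 4 sympathoadrenal and 8 neuronal genes of smallest p and genes with a positive difference; of other lists the 4 or 2 genes of smallest p are named, except some that are not reported here. Alternatives were other scalings, background correction, filters and probe rules, slide and replicate number as blocks, the series table and leaving out arrays.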

Additional observations from a re-analysis of the deposited data

Results flagged for a closer look

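The mean log2 signal of the 6 glial genes was -4.29, -2.73 and -4.57 in labelled p21-null replicates 1 to 3, against -3.20, -1.29, -1.59, -1.41 and -1.71 in wild-type replicates 1 to 5. Wild-type replicate 1, at -3.20, lay far below the other 4 wild-type arrays and inside the labelled p21-null range; its gap to the nearest wild-type array was 0.780 of the whole wild-type range. This was the 1 such case among 35 sets of wild-type values checked, of which chance gives about 1 in 20.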

How the results depend on the processing

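None of the 31 genes reached an adjusted p under 0.05 in any of 19 refits, and 20 kept the sign of their difference under all alternatives tried for them. The median over the 31 genes kept its sign under all 22 alternatives; 5 genes were not above background on all 8 arrays and could not be fitted under that filter. The count of features past the adjusted threshold was 3 with normexp background correction and between 0 and 1 when single arrays were left out. The count of the 31 genes lower at an unadjusted p under 0.05 was 11 with slide as a fixed block, 3 without both wild-type replicates 3 and 4 (an alternative added after the data were seen), and 2 to 11 when single arrays were left out. The neuronal median without both wild-type replicates 3 and 4 was -0.61, and the glial median within slide 3 was -3.17. The same replicate number did not pair samples (correlations of deviations 0.06, -0.08 and -0.07 for numbers 1 to 3). The highest correlations were those of the 2 arrays on slide 3, at 0.23, and on slide 2, at 0.14. On slide 1 labelled p21-null replicate 1 gave 0.06, 0.02 and 0.08 with wild-type replicates 1 to 3. With the replicate block 4 of the 31 genes were lower at an unadjusted p under 0.05, and the share of all features was not counted for this fit. The medians with this block were -1.26 over all, -1.32 glial, -0.72 sympathoadrenal and -1.77 neuronal. The sign turned for Cartpt with median centring (0.0123) and the replicate block (0.31), and for Chga with normexp (-0.0138) and slide as a fixed block (-0.24). Within slide 1 the sign turned for Dbh (0.71), Chga (-0.0787) and Snap25 (-0.18), within slide 2 for Foxd3 (0.57), Erbb3 (1.61), Th (0.81), Chga (-1.64), Prph (0.52) and Cartpt (0.52), and within slide 3 for Hand2 (-2.92), Th (0.11), Chgb (0.96), Elavl4 (0.67) and Snap25 (-0.0584). Leaving out single arrays gave ranges that include both signs for Erbb3 (-0.96 to 0.25), Hand2 (-0.32 to 1.68), Th (-0.49 to 0.0017), Dbh (-0.63 to 0.0566), Chga (-0.44 to 0.40), Snap25 (-0.0093 to 0.29), Prph (-0.57 to 0.13) and Cartpt (-0.39 to 0.41). The cause of these moves was not tested. Signal close to background limits Foxd3, Sox2, Isl1, Chgb and Nefl.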
